A study of Bos taurus with 56 samples.

Results

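Interferon-stimulated genes were followed in the epithelium of the bovine oviduct. The set consisted of 34 gene symbols chosen by name, of which 32 were rows of the deposited count table of 31903 genes. IRF7 and DHX58 were not found under these symbols. Epithelial cells had been scraped from both oviducts of 14 Holstein females that had not been inseminated, separately for ampulla and isthmus. The oviduct on the side of the corpus luteum (CL) is called ipsilateral and the other contralateral. The animals were 5 nulliparous heifers, 5 post-partum cows dried off at calving and never milked (non-lactating) and 4 post-partum cows that were milked (lactating). The cows were about 60 days post-partum. All animals, heifers included, had received an intravaginal progesterone device, a prostaglandin F analogue and the GnRH analogue buserelin to synchronize estrus, and were slaughtered on Day 3 after it. This gave 56 libraries, with 1 per animal and tissue, in 12 conditions of metabolic group, region and side. The animals were separate individuals, so the spread within a condition is the spread between animals, and the same animals recur in the 4 tissues. In such bulk samples, fewer cells of a type and less RNA per cell cannot be told apart.

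Interferons bind receptors on the cell surface, whose kinases phosphorylate transcription factors of the STAT family. Under type I and III interferons STAT2 acts together with IRF9 in a complex that switches on a broad set of antiviral genes. In ruminants these genes are known best from the uterus, where they answer to interferon tau, the signal by which the early conceptus announces pregnancy. The 32 genes comprised transcription factors (STAT2, IRF1 and IRF9), sensors of foreign RNA (DDX58, IFIH1, EIF2AK2 and ZNFX1) and the RNA-binding IFIT proteins (IFIT1, IFIT2, IFIT3 and IFIT5). Antiviral effectors were MX1, MX2, OAS2, RSAD2, CMPK2 and SAMD9. The ubiquitin-like modifier ISG15 was accompanied by its activating enzyme UBA7, the ubiquitin ligases HERC6 and TRIM25 and USP18, which removes ISG15 from proteins. The remaining members were PARP9 with its partner DTX3L, the related PARP12 and PARP14, the interferon-induced genes IFI6, IFI35, IFI44, IFI44L and XAF1, and CXCL10, a chemokine that attracts activated T cells.

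The libraries held 1901454 to 6836850 counts on genes (median 4931502.5), which were 8.66 to 13.7% of the counted alignments. Levels are given as CPM, the counts of a gene scaled to a common library size after TMM normalization, and are compared between samples, not between genes. Epithelial markers such as EPCAM and KRT8 were found in every library, with a summed level of 1620 to 38600 CPM for the 8 genes of that list, while 4 red cell markers did not exceed 0.72 CPM in sum. By their profiles 52 of the 56 libraries correlated best with the other tissues of the animal number in their column name. The 4 others were all of the ipsilateral ampulla. A library of the non-lactating group carried the number of lactating cow B and matched non-lactating cow C (r = 0.781), and a lactating library carried the number of non-lactating cow C and matched lactating cow B (r = 0.911). In the same tissue the library of heifer B matched non-lactating cow B (r = 0.773) and that of non-lactating cow B matched heifer B (r = 0.665), so that the group of these 2 libraries is in doubt. Pairwise comparisons that rest on the ipsilateral ampulla were therefore also computed without the mismatched libraries. Tests of whether a difference depended on the metabolic group were not.

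The level of interferon-stimulated genes varied between animals of the same metabolic group. For each animal the log2 CPM of the 32 genes was averaged over the 3 tissues in which numbers and groups matched (contralateral ampulla and both isthmi). This mean was highest in lactating cow A (5.47), lactating cow C (5.28) and heifer E (5.06). Non-lactating cow D (4.78), heifer D (4.73) and non-lactating cow C (4.66) followed. It lay at 4.35 in heifer C and non-lactating cow A, and between 4.21 and 4.22 in heifers A and B and non-lactating cow E. Lactating cow B (4.05), lactating cow D (4.00) and non-lactating cow B (3.87) were lowest. The highest and the lowest ranks were thus both held by cows, and the 4 lactating cows split into a pair at the top and a pair near the bottom of the order. Per metabolic group the mean was 4.52 ± 0.37 in heifers (SD, n = 5), 4.37 ± 0.364 in non-lactating cows (SD, n = 5) and 4.70 ± 0.786 in lactating cows (SD, n = 4), and the 3 ranges overlapped.

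**Figure D1:**
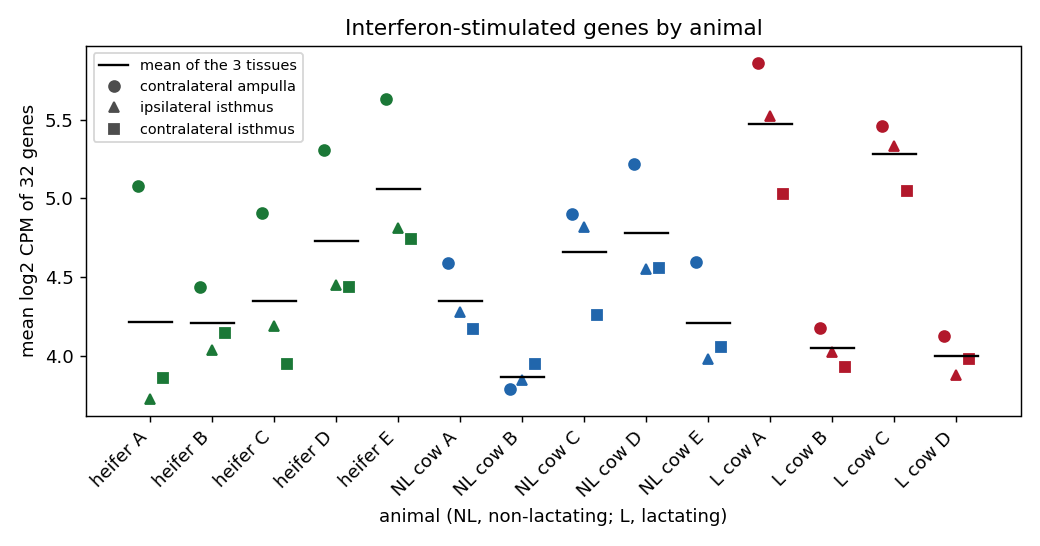
Mean log2 CPM of the 32 interferon-stimulated genes (vertical axis) in each of the 14 animals (horizontal axis). Green marks heifers, blue non-lactating and red lactating cows; circles, triangles and squares are the contralateral ampulla, ipsilateral isthmus and contralateral isthmus, and the black bar is their mean. Lactating cows A and C (5.47 and 5.28) stand above lactating cows B and D (4.05 and 4.00) in all 3 tissues.

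The order of the animals recurred between tissues. Over the 14 animals, the mean of the members in the ipsilateral isthmus correlated with that in the contralateral isthmus at r = 0.941, and with that in the contralateral ampulla at r = 0.784. For the contralateral isthmus and ampulla r was 0.801. These values are descriptions, since the tissues share animals. When the variance of each gene over the 3 tissues was divided, the share between animals within a metabolic group had a median of 48.7% over the 32 members and of 24.3% over 15779 genes, against 26.8% of the degrees of freedom. Tissue accounted for a median of 16.9% and metabolic group for 7.25% in the members (21.0% and 4.44% over all genes), against 4.88% of the degrees of freedom each. Relative to its degrees of freedom, tissue thus took more of the variance of the members than animals did. The share between animals, which had the most degrees of freedom of the 3, was the largest in 27 of the 32 members. It reached 68.1% for IRF9, 66.5% for EIF2AK2, the kinase PKR that stops translation, and 64.9% for PARP9. In ZNFX1, HERC6 and XAF1, tissue took the largest share instead, with 68.6, 58.4 and 50.0%.

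**Figure D2:**
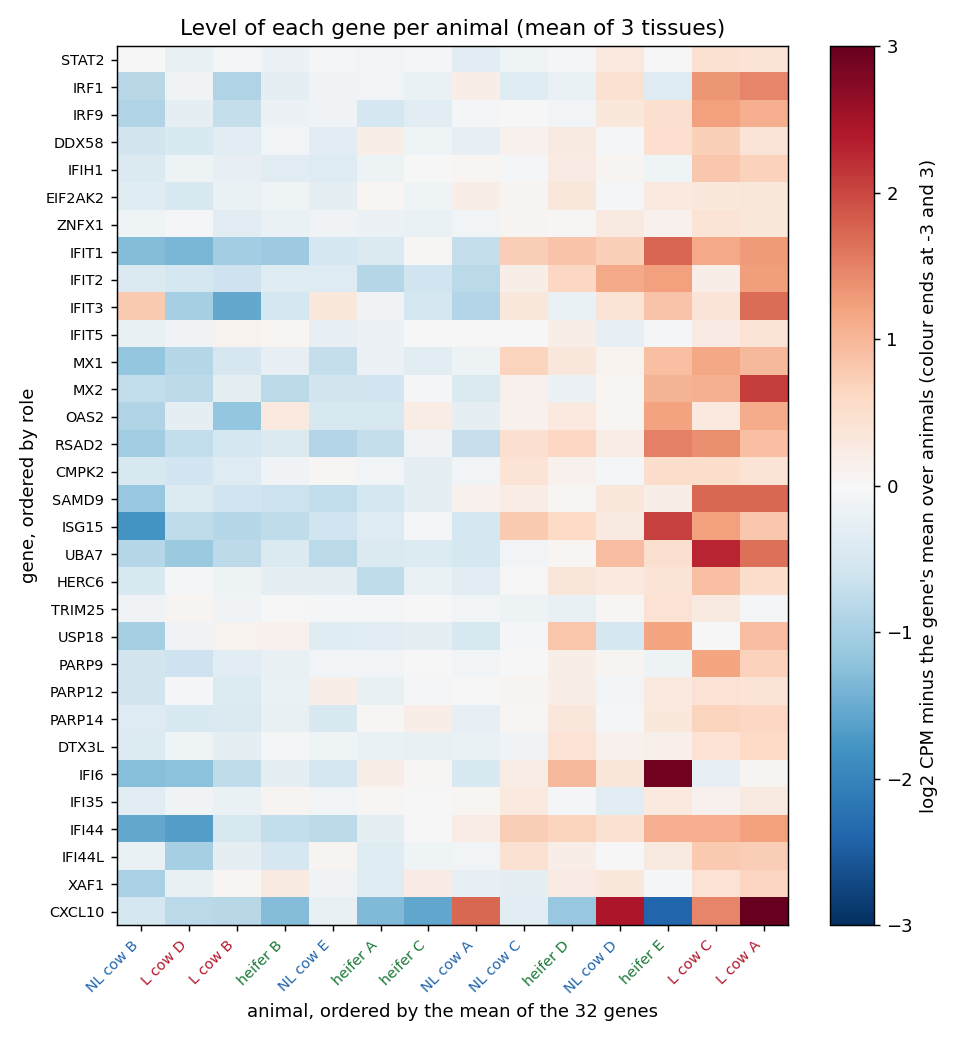
Level of each of the 32 genes (rows, by role) in each animal (columns, ordered by the mean of the genes), as the log2 CPM over 3 tissues minus the mean of that gene over the 14 animals. Most rows turn from blue to red from non-lactating cow B to lactating cow A, whereas CXCL10 does not follow this order and IFI6 is highest in heifer E.

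Most members varied together. The correlation of a member with the mean of the others over the 14 animals had a median r of 0.841 and was at least 0.7 in 24 of the 32. It was 0.939 for MX1, a GTPase that traps viral components, and 0.932 for IRF9. TRIM25 (0.433), CXCL10 (0.446) and IFI6 (0.539) followed the others least. All points share the 14 animals and their libraries, and no test was made. The mean level of MX1 per animal ran from 29.4 CPM in non-lactating cow B to 151 CPM in lactating cow C, 5.13-fold. SAMD9 ranged from 20.5 CPM in non-lactating cow B to 157 CPM in lactating cow A, 7.65-fold. The same cow and lactating cow C were the extremes for UBA7, at 9.34 and 86.9 CPM. Non-lactating cow B was the lowest animal for these 3 genes. Lactating cow C was the highest for MX1 and UBA7, and lactating cow A for SAMD9. The narrowest ranges were those of IFIT5 (1.60-fold), STAT2 (1.72-fold) and ZNFX1 (1.73-fold).

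Heifer E and lactating cow A, both high in the mean of the members, differed in single genes. IFI6, whose product resides in mitochondria and the endoplasmic reticulum, averaged 1410 CPM in heifer E and 53.5 CPM in non-lactating cow B. The contralateral ampulla of heifer E had 3160 CPM, against 60 to 364 CPM in the 4 other heifers. ISG15 averaged 40 CPM in heifer E and 1.41 CPM in non-lactating cow B, and reached 98.1 CPM in the contralateral ampulla of heifer E. CXCL10, in contrast, averaged 0.317 CPM in heifer E, the lowest of the animals, and 109 CPM in lactating cow A, the highest. Lactating cow A had 130, 169, 116 and 43.3 CPM of CXCL10 in the ipsilateral ampulla, contralateral ampulla, ipsilateral isthmus and contralateral isthmus.

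Some members were measured near the limit of the depth. A count of 3 or fewer was found in 16 of the 56 libraries for OAS2, in 13 for CXCL10, in 11 for IFIT2, in 8 for IFIT3, in 3 for USP18, in 2 for ISG15 and in 1 each for IFIT1 and RSAD2. The other 24 members exceeded 3 counts in every library.

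Among 13911 genes outside the set, ZBP1, a sensor of Z-form nucleic acids, followed the mean of the members most closely over the 14 animals (r = 0.955). OAS1Y followed at 0.952, HERC5 at 0.917 and RTP4 at 0.915, and no other gene reached 0.9. LGALS9 (0.890), OAS1Z (0.888), PPA1 (0.877), SLFN11 (0.877), LOC104971266 (0.876) and TRIM21 (0.864) completed the 10 closest. Of these 10 genes, 7 were on the list of other interferon-induced genes, and PPA1, SLFN11 and LOC104971266 were on none of the lists. Leukocyte markers moved in part with the members. The correlation over the 14 animals with the mean of the members was 0.62 for the list of B and plasma cell markers and 0.535 for leukocyte markers. For macrophage, T cell and NK cell markers it was 0.51, 0.451 and 0.429, but for epithelial markers -0.0785. Endothelial markers had 0.293, stroma markers 0.183 and smooth muscle markers -0.436. These values are for summed levels, and the epithelial sum was mostly OVGP1 (median 9420 CPM). Single epithelial markers ran from -0.304 (FOXJ1) to 0.335 (PAX8), and single macrophage markers from -0.0326 (CD163) to 0.704 (C1QB). The summed level was 0 to 10 CPM for B and plasma cell markers, 3.60 to 101 CPM for T cell and 24.7 to 408 CPM for macrophage markers. CD79A, CD79B, MS4A1 and PAX5 of the B and plasma cell list had no count in 30, 53, 48 and 44 of the 56 libraries. Over the 56 libraries the mean of the members correlated with the log2 depth at 0.345. The part of these cells and of depth in the differences between animals was not tested.

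Of the comparisons between conditions, that of isthmus and ampulla called the most members, and nearly all of them were lower in the isthmus. In heifers, 15 of 30 members tested were differentially expressed (DEGs) on the ipsilateral side, 13 of them lower and 2 higher in the isthmus, by the quasi-likelihood test of edgeR (p under 0.05 after Benjamini-Hochberg adjustment). On that side 35.4% of all genes tested were DEGs. On the contralateral side of heifers 15 of 31 members were DEGs, all lower in the isthmus, against 25% of all genes. In non-lactating cows 6 of 31 members were DEGs ipsilaterally (5 lower; 18.7% of all genes) and 6 of 30 contralaterally (all lower; 20.4% of all genes), shares close to those of all genes. Lactating cows had 1 of 31 ipsilaterally (15.8% of all genes) and 1 of 30 contralaterally (10.4% of all genes), below the background. The median log2 fold change of the members tested was -0.63, -0.50 and -0.21 ipsilaterally and -0.68, -0.57 and -0.50 contralaterally in heifers, non-lactating and lactating cows. That of all genes lay between -0.0267 and 0.00596. Without the mismatched libraries the ipsilateral medians were -0.85, -0.34 and -0.42, and 18 of 31 (33.1% of all genes), 5 of 31 (14.4%) and 1 of 32 members (12.5%) were DEGs. The member called in lactating cows was then ZNFX1, lower in the isthmus, in place of XAF1. With the animal as a block, 12 of 30 members were DEGs in the contralateral comparison of non-lactating cows (23.5% of all genes) and 10 of 30 in that of lactating cows (16.8%). Ipsilaterally the block gave 5 of 31 members in lactating cows (15.5%), and 8 with the exchanged numbers put right (23.1%). In non-lactating cows it gave 9 of 31 (12.3%), and 14 with the numbers put right (19.9%).

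Values of single heifers are given for the 2 called members with the largest decreases on each side. These decreases exceed that of the typical member, whose median log2 fold change in heifers was -0.63 ipsilaterally and -0.68 contralaterally. On the ipsilateral side IFIT1, which binds foreign RNA, had 19.3, 3.09, 23.5, 33.5 and 69.6 CPM in the ampulla of heifers A to E. In their isthmus it had 0.513, 1.14, 5.07, 10.2 and 13.5 CPM. Each heifer was lower in the isthmus, although the groups overlapped through the low ampulla library of heifer B, the one whose group is in doubt (log2 fold change -2.30 ± 0.71 (SE), adjusted p = 0.0216 in edgeR). IFI44 had 28.0, 6.94, 37.0, 46.8 and 72.3 CPM in the ipsilateral ampulla and 4.36, 5.30, 9.94, 14.8 and 22.2 CPM in the isthmus of heifers A to E (log2 fold change -1.77 ± 0.51, adjusted p = 0.0149 in edgeR). Contralaterally ISG15 had 16.8, 5.88, 19.4, 16.8 and 98.1 CPM in the ampulla and 1.04, 2.67, 1.95, 5.24 and 11.5 CPM in the isthmus. Here too every heifer was lower in the isthmus, and the isthmus of heifer E lay among the ampulla values of the others (log2 fold change -2.77 ± 0.77, adjusted p = 0.0188 in edgeR, and -1.65 with adjusted p = 0.033 without the ampulla of heifer E). For IFIT1 on that side the values were 34.5, 6.47, 25.2, 33.4 and 30.9 CPM in the ampulla and 2.42, 1.78, 1.3, 3.22 and 19.0 CPM in the isthmus (log2 fold change -2.19 ± 0.66, adjusted p = 0.0283 in edgeR). Leaving out 1 library at a time moved the contralateral count of heifers from 15 to between 6 and 15 DEGs. It was 6 without the isthmus of heifer A, 7 without that of heifer C and 9 without the isthmus of heifer B or D or the ampulla of heifer A or D. Without the isthmus of heifer E the contralateral log2 fold change of IFIT1 was -3.53 (adjusted p = 0.000574). IFIT1 was no longer called on that side without the isthmus of heifer A, B, C or D or the ampulla of heifer A or D (adjusted p = 0.0551 to 0.069), and on the ipsilateral side without the ampulla of heifer E (adjusted p = 0.0761). The ipsilateral count fell to 9 without the isthmus of heifer B or the ampulla of heifer E.

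HERC6 was a DEG in 3 of the 4 comparisons of regions in cows. In the contralateral ampulla of non-lactating cows A to E it had 95.4, 65.4, 118, 150 and 109 CPM, and in their isthmus 41.1, 43.5, 48.0, 68.1 and 43.5 CPM. The groups overlapped only through the ampulla of cow B and the isthmus of cow D (log2 fold change -1.16 ± 0.20, adjusted p = 0.00108 in edgeR). In lactating cows A to D the contralateral ampulla had 168, 107, 168 and 110 CPM and the isthmus 60.7, 49.0, 113 and 63.4 CPM (log2 fold change -0.95 ± 0.27, adjusted p = 0.0455 in edgeR). The isthmus of cow C lay above the ampulla of cows B and D. HERC6 was the member called there, and remained called only without the isthmus of cow C or the ampulla of cow D (adjusted p = 0.0526 to 0.129 without any 1 of the 6 other libraries). Its ipsilateral log2 fold change in non-lactating cows was -1.19 ± 0.17 (adjusted p = 0.000321 in edgeR). MX2, a relative of MX1 that acts at the nuclear envelope, had 26.5, 15.8, 41.4, 47.1 and 33.8 CPM in the contralateral ampulla of non-lactating cows A to E and 18.4, 19.2, 17.5, 20.4 and 19.5 CPM in the isthmus. Cow B alone was higher in the isthmus, and MX2 was no longer called without any 1 of the isthmus libraries of cows A, C, D and E or the ampulla of cow C or D (adjusted p = 0.0559 to 0.0741 in edgeR; with all libraries log2 fold change -0.82 ± 0.25, adjusted p = 0.0287 in edgeR). IFIT3 was called in the ipsilateral comparison of non-lactating cows (-1.09 ± 0.35, adjusted p = 0.0462 in edgeR), with 3.35 to 6.36 CPM in the ampulla and 1.34 to 3.60 CPM in the isthmus, and was no longer called with the block (adjusted p = 0.143) or without the mismatched libraries (adjusted p = 0.123). Leaving out any 1 of 8 of its 10 libraries, all but the ampulla and isthmus of cow B, had the same effect on IFIT3 (adjusted p = 0.0554 to 0.113). The contralateral count of non-lactating cows ranged from 2 to 10 DEGs with 1 library left out. It was 10 without the ampulla of cow B, 2 without the isthmus of cow C and 3 without the isthmus of cow A or E or the ampulla of cow C, D or E.

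When the metabolic groups were pooled with the animal as a block, a comparison added after seeing the data, 19 of 31 members were DEGs between the regions of the contralateral side in 14 animals (46.9% of all genes). Of these 18 were lower in the isthmus, a direction taken by 22.8% of all genes. On the ipsilateral side, in the 10 animals whose ampulla library matched its number, 22 of 31 members were DEGs (46.4% of all genes), 20 of them lower (23.2% of all genes). The filter kept 31 members on each side here, but 29 where the isthmi alone were compared. A member kept only through its level in the ampulla could hardly be called higher in the isthmus, which limits the counts by direction. The mean of the members was lower in the isthmus of 13 of 14 animals contralaterally (median difference -0.59 on the log2 scale) and of 10 of 10 ipsilaterally (-0.58). Non-lactating cow B, the animal with the lowest levels, was the exception.

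**Figure D3:**
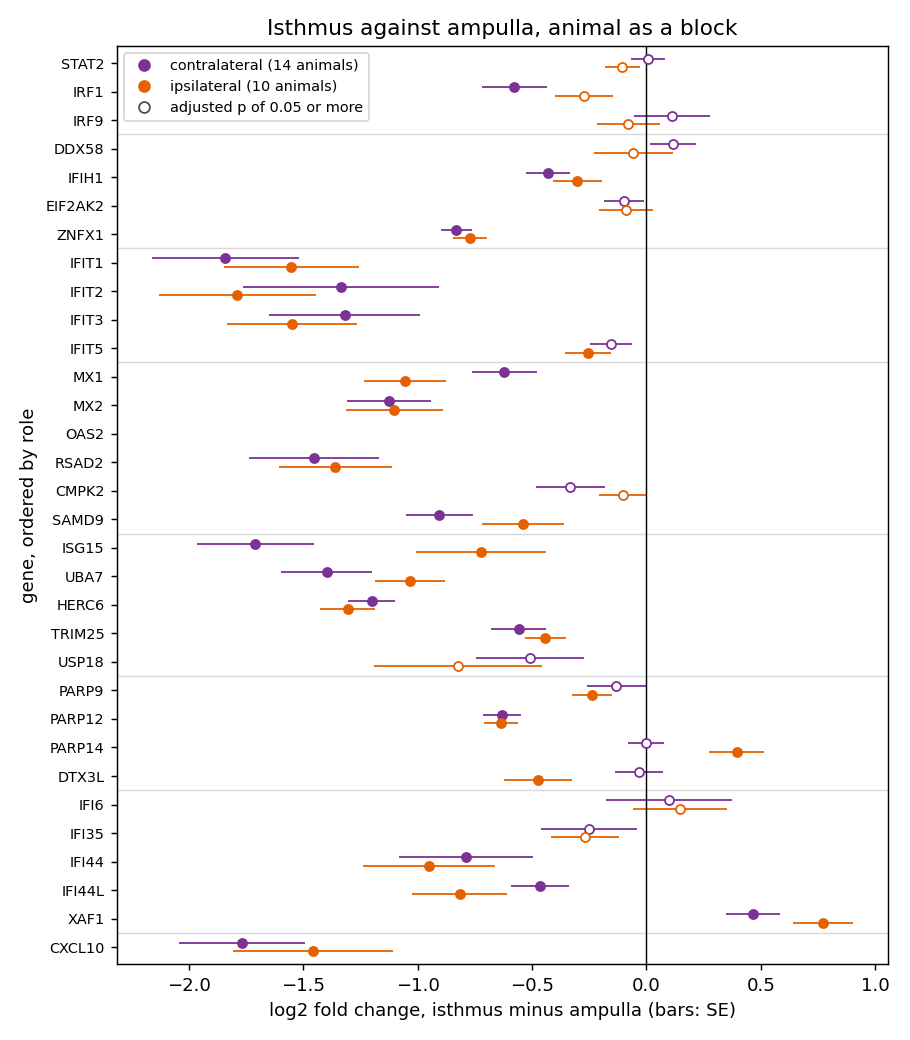
Log2 fold change between isthmus and ampulla (horizontal axis, with the SE as a bar) for each gene (vertical axis, by role), contralateral in purple and ipsilateral in orange. Filled points had an adjusted p under 0.05; most filled points lie left of 0, XAF1 lies right of 0 on both sides, and STAT2, IRF9, DDX58 and EIF2AK2 lie near 0. OAS2 was not tested on either side.

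By role, 4 of the 5 genes of the ISG15 system were DEGs lower in the isthmus on each side. This direction was called for 22.8% of all genes contralaterally and 23.2% ipsilaterally. USP18 was not called. HERC6 fell by 1.20 ± 0.10 on the log2 scale contralaterally and by 1.31 ± 0.12 ipsilaterally, and was lower in 14 of 14 and 10 of 10 animals (adjusted p = 8.94e-09 and 2.77e-07 in edgeR). Its median level was 124 CPM in the contralateral ampulla (65.4 to 181) and 48.5 CPM in the isthmus (31.5 to 113). UBA7 fell by 1.40 ± 0.20 and 1.03 ± 0.15, and ISG15 by 1.71 ± 0.26 and 0.72 ± 0.28. TRIM25 was lower by 0.56 ± 0.12 and 0.44 ± 0.09 on that scale. USP18, which works against the other members of this group, had log2 fold changes of -0.51 ± 0.24 (adjusted p = 0.0841 in edgeR) and -0.82 ± 0.37 (adjusted p = 0.0771 in edgeR).

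Of the IFIT genes 3 of 4 were DEGs lower in the isthmus contralaterally (22.8% of all genes) and 4 of 4 ipsilaterally (23.2%). IFIT2 and IFIT3 were near the limit of the depth in the isthmus, with medians of 1.20 and 2.10 CPM contralaterally and 1.40 and 1.62 CPM ipsilaterally. Their calls could hardly have gone the other way. IFIT1 fell by 1.84 ± 0.32 and 1.55 ± 0.29 on the log2 scale, with medians of 15.4 CPM in the contralateral ampulla and 3.30 CPM in the isthmus. IFIT2 fell by 1.33 ± 0.43 and 1.79 ± 0.34. IFIT5 had the smallest difference of this group, -0.15 ± 0.09 contralaterally (adjusted p = 0.186 in edgeR) and -0.25 ± 0.10 ipsilaterally (adjusted p = 0.0491 in edgeR). Among the antiviral effectors, MX1, MX2, RSAD2 and SAMD9 were lower on both sides. RSAD2, the enzyme viperin that makes a chain-terminating nucleotide, fell by 1.45 ± 0.29 and 1.36 ± 0.25, and MX2 by 1.12 ± 0.18 and 1.10 ± 0.21. CMPK2, which lies beside RSAD2 in the genomes of mammals, had log2 fold changes of -0.33 ± 0.15 (adjusted p = 0.0768 in edgeR) and -0.10 ± 0.10 (adjusted p = 0.454 in edgeR). CXCL10 fell by 1.77 ± 0.28 and 1.46 ± 0.35 and was lower in 13 of 14 and 9 of 10 animals. Its medians in the isthmus, 1.47 and 0.928 CPM, were near the limit of the depth as well.

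The RNA sensors differed among themselves. ZNFX1, a helicase that binds viral RNA at mitochondria, fell by 0.83 ± 0.07 contralaterally and by 0.77 ± 0.07 ipsilaterally (adjusted p = 3.65e-09 and 5.18e-07 in edgeR), in 14 of 14 and 10 of 10 animals. Its levels were 275 to 534 CPM (median 405) in the contralateral ampulla and 164 to 319 CPM (median 216) in the isthmus, so that the groups overlapped only in part. IFIH1, the sensor MDA5 of long double-stranded RNA, fell by 0.43 ± 0.10 and 0.30 ± 0.11. DDX58, the sensor RIG-I of short RNA ends, had log2 fold changes of 0.12 ± 0.10 and -0.06 ± 0.17, and EIF2AK2 of -0.10 ± 0.09 and -0.09 ± 0.12. None of these 4 values passed the threshold, the adjusted p being 0.357 to 0.815 in edgeR. The factors STAT2 (0.01 ± 0.07 and -0.11 ± 0.08) and IRF9 (0.11 ± 0.17 and -0.08 ± 0.14) did not pass it either. IRF1 was lower on the contralateral side (-0.58 ± 0.14, adjusted p = 0.00205 in edgeR) and had -0.27 ± 0.13 ipsilaterally (adjusted p = 0.0941). PARP12 was lower in 14 of 14 and 10 of 10 animals (-0.63 ± 0.08 and -0.63 ± 0.07).

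XAF1 went the other way. This gene encodes a binding partner of the caspase inhibitor XIAP and promotes apoptosis. Its level was 11.5 to 42.0 CPM (median 24.6) in the contralateral ampulla and 15 to 60.5 CPM (median 34.4) in the isthmus. Ipsilaterally it was 18.7 to 47.5 CPM (median 32) and 32.2 to 81.8 CPM (median 53.0). It was higher in the isthmus of 13 of 14 animals contralaterally (0.47 ± 0.12, adjusted p = 0.0028 in edgeR) and of 10 of 10 ipsilaterally (0.77 ± 0.13, adjusted p = 0.000149 in edgeR). Within the metabolic groups XAF1 was higher in the ipsilateral isthmus by 0.51 ± 0.17 in heifers, 0.72 ± 0.22 in non-lactating and 1.04 ± 0.27 in lactating cows. Its adjusted p there was 0.0325, 0.0384 and 0.0243 in edgeR, and 0.0563, 0.0912 and 0.0621 without the mismatched libraries. XAF1 was the DEG of the ipsilateral comparison of lactating cows, and was no longer called there without the isthmus of cow C (adjusted p = 0.0599) or the ampulla library with the number of non-lactating cow C (0.0621). In heifers the call of XAF1 was lost without the isthmus of heifer B, C or E or the ampulla of heifer A, B or C (0.0556 to 0.0791), and in non-lactating cows without the isthmus of cow A, D or E or any ampulla library but that of cow D (0.0541 to 0.0924). PARP14, a transferase of single ADP-ribose units, was higher in the ipsilateral isthmus (0.40 ± 0.12, adjusted p = 0.0127 in edgeR; 8 of 10 animals) but had a log2 fold change of -0.00087 ± 0.08 contralaterally (adjusted p = 0.994).

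**Figure D4:**
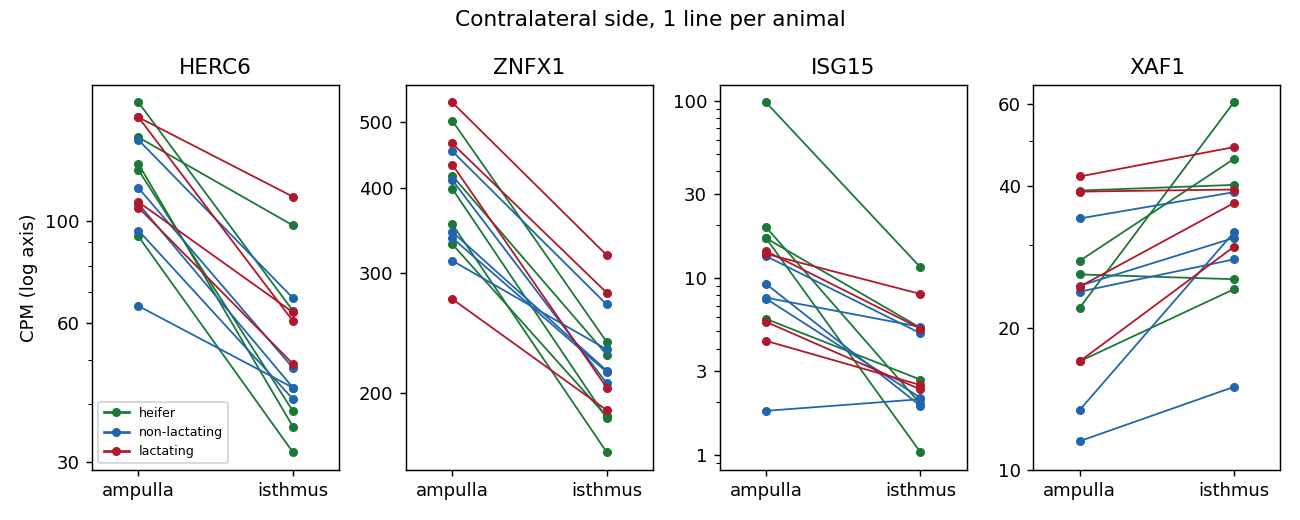
CPM of HERC6, ZNFX1, ISG15 and XAF1 (vertical log axes) in the contralateral ampulla and isthmus, with 1 line per animal; green, heifers, blue, non-lactating and red, lactating cows. All 14 lines of HERC6 and ZNFX1 fall, 13 of 14 fall for ISG15, and 13 of 14 rise for XAF1.

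Whether the regional difference depended on the metabolic group was tested as an interaction, added after seeing the data. No member was called on either side in edgeR (0% of all genes). An unadjusted p under 0.05 was found for 1 of 32 on each side, USP18 ipsilaterally (3.65% of all genes) and IFI6 contralaterally (2.46%), with an adjusted p of 1 each. With the animal as a block none was called either, and 9 members ipsilaterally (5.47% of all genes) and 4 contralaterally (3.62%) had such an unadjusted p. The ipsilateral test included the mismatched libraries and was not repeated without them.

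Other genes of the pathway were compared in the same pooled fits, and the counts given here are of DEGs. Of all genes 46.9% were DEGs contralaterally (22.8% lower in the isthmus) and 46.4% ipsilaterally (23.2% lower). Of 9 receptor chains and kinases, 5 were higher and 1 lower contralaterally, and 3 higher and 1 lower ipsilaterally. The ipsilateral count was close to the share of all genes. IFNLR1, the receptor chain specific to type III interferon, was higher on both sides (1.5 ± 0.48 and 1.16 ± 0.23), as was IFNAR1, a chain of the type I receptor (0.63 ± 0.10 and 0.29 ± 0.11). IFNGR2, a chain of the interferon gamma receptor, was lower (-0.53 ± 0.07 and -0.82 ± 0.09). Of the other interferon-induced genes, 12 of 28 tested were lower and 4 higher contralaterally, and 15 of 29 were lower and 3 higher ipsilaterally. EPSTI1 (-1.46 ± 0.12 and -1.54 ± 0.14) was among the lower ones, and GBP4 (1.10 ± 0.17 and 1.62 ± 0.22) was higher. Genes of interferon gamma response and of class I antigen presentation were lower in 9 of 13 and in 10 of 13, and higher in 0. WARS fell by 1.35 ± 0.10 and 1.37 ± 0.12.

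Markers of other cells differed between the regions too. The summed level of 4 endothelial markers had a median of 185 CPM in the ampulla (83.4 to 388) and 36.4 CPM in the isthmus (11.4 to 122) over 28 libraries each. It was lower in the isthmus of 14 of 14 animals contralaterally and 10 of 10 ipsilaterally. The difference of that sum between the regions and the difference of the member mean correlated at r = 0.503 over the 14 animals contralaterally and at r = -0.46 over the 10 animals ipsilaterally. Smooth muscle markers had a median sum of 42.8 CPM in the isthmus and 16.1 CPM in the ampulla. Of that list MYH11 was higher in the isthmus (4.83 ± 0.38 contralaterally and 5.03 ± 0.30 ipsilaterally), but DES was lower contralaterally (-1.28 ± 0.35) and ACTA2 ipsilaterally (-0.83 ± 0.17). Leukocyte markers had a median sum of 122 CPM in the isthmus and 81.9 CPM in the ampulla. Of that list LCP1 alone was a DEG, higher in the isthmus (1.085 ± 0.105 contralaterally and 0.73 ± 0.18 ipsilaterally). Sums of T cell (15.5 and 16.1 CPM) and macrophage markers (58.1 and 55.4 CPM) had similar medians in ampulla and isthmus. Within these lists ZAP70 was higher contralaterally (1.10 ± 0.38). Ipsilaterally AIF1 (-0.83 ± 0.27) and MRC1 (-0.71 ± 0.22) were lower, and C1QA (0.56 ± 0.17) and C1QC (0.53 ± 0.19) higher. EPCAM was higher and FOXJ1, the regulator of ciliated cells, lower in the isthmus on both sides. The part of these cells in the regional difference was not tested.

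Few members differed between the sides ipsilateral and contralateral to ovulation. In single metabolic groups the only DEG was PARP14, in the isthmus of heifers (1 of 29 members, against 10% of all genes). PARP14 had 176, 157, 206, 229 and 238 CPM in the ipsilateral isthmus of heifers A to E and 113, 97.3, 141, 158 and 130 CPM in the contralateral isthmus. It was higher ipsilaterally in each heifer, and the lowest ipsilateral value lay just under the highest contralateral one (log2 fold change 0.63 ± 0.15, adjusted p = 0.0203 in edgeR). The call was lost without the ipsilateral isthmus of heifer E or the contralateral isthmus of heifer A. Among the 5 other comparisons of sides edgeR called 0 members. In the ampulla, 0% of all genes were DEGs in heifers, 0.0947% in non-lactating and 0% in lactating cows, and 1 of 31, 0 of 31 and 0 of 32 members had an unadjusted p under 0.05 (9.2, 11.1 and 4.26% of all genes). In the isthmus the DEGs made up 5.11% of all genes in non-lactating and 0.187% in lactating cows, and 2 of 30 and 1 of 29 members had such a p (21.5 and 12.2%). By sign alone, 28 of 29 members had a higher fitted mean ipsilaterally in the isthmus of lactating cows (median log2 fold change 0.25). The numbers were 16 of 29 in heifers and 21 of 30 in non-lactating cows. Of all genes 50.1, 51.8 and 49.3% were lower in that order. As the members moved together, these counts are not independent. DESeq2 called XAF1 in the isthmus of lactating cows (adjusted p = 0.0373; 1.45% of all genes). With the animal as a block, PARP14 and IFI44L (lower ipsilaterally) were called in the isthmus of heifers (14.1% of all genes), XAF1 in that of non-lactating cows (7.48%) and XAF1 and PARP14 in that of lactating cows (2.32%). In the ampulla of lactating cows the block called IFI6 as higher ipsilaterally (0.187% of all genes), and with the numbers put right IFI6 as higher and SAMD9 as lower (1.18%).

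Pooled over the 14 animals with the animal as a block, an addition made after seeing the data, 6 of 29 members were DEGs between the isthmi, against 34.8% of all genes. XAF1 was higher ipsilaterally in 13 of 14 animals (0.64 ± 0.10, adjusted p = 5.38e-05 in edgeR), with a median of 53.0 CPM against 34.4 CPM. PARP14 was higher in 13 of 14 (0.44 ± 0.06, adjusted p = 3.18e-05 in edgeR), and UBA7 in 12 of 14 (0.52 ± 0.13, adjusted p = 0.00408 in edgeR). Smaller differences were found for IFI6 (0.34 ± 0.12), STAT2 (0.21 ± 0.07) and, lower ipsilaterally, IFI44L (-0.32 ± 0.12). In the ampulla of the 10 animals, ISG15 was lower ipsilaterally (-0.79 ± 0.19, adjusted p = 0.0288 in edgeR; 9 of 10 animals), the only DEG of 32 members against 3.6% of all genes. XAF1 and PARP14 were thus higher in the ipsilateral isthmus both than in the contralateral isthmus and than in the ipsilateral ampulla, comparisons that share the same ipsilateral libraries. In the isthmus, KRT8 and KRT18 of the epithelial list were also higher ipsilaterally (0.52 ± 0.07 and 0.44 ± 0.07), as was CDH1 (0.22 ± 0.07). PECAM1, KDR and TEK of the endothelial list were lower. MYH11 (0.74 ± 0.23) was higher, and LUM (-1.40 ± 0.24) and LAPTM5 (-0.31 ± 0.11) were lower. Of the pathway genes, WARS, TAPBP, PSMB9, PSMB10, PSME2, GBP4, SHISA5, NMI, HERC5, PML, STAT3 and JAK1 were higher. IFNAR1, IFNAR2, IFNGR2, IL10RB, JAK2, SAMHD1, MB21D1, TLR7 and TMEM173 were lower. The part of these cells in the differences between sides was not tested. Tests of side by metabolic group called no member in either region (0% of all genes). At an unadjusted p under 0.05 there were 0 members in the isthmus (2.05% of all genes) and 0 in the ampulla (1.15%), DTX3L and USP18 having the smallest p. With the block 4 (4.68%) and 3 (2.05%) members were under 0.05. The test in the ampulla included the mismatched libraries and was not repeated without them.

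No member was a DEG of metabolic status in edgeR. Each of the 4 tissues allowed 3 comparisons, 12 in all, and 0 of 27 to 32 members tested were called in each. Of all genes 0% were DEGs in 11 of these comparisons and 0.0073% in the ipsilateral isthmus for non-lactating cows against heifers. Members with an unadjusted p under 0.05 were found in every comparison. For lactating cows against heifers they numbered 4 of 32 in the ipsilateral ampulla (7.15% of all genes), 5 of 32 in the contralateral ampulla (4.73%), 8 of 29 in the ipsilateral isthmus (10.4%) and 4 of 29 in the contralateral isthmus (10.7%). For non-lactating cows against heifers the numbers, in the same order of tissues, were 4 of 31 (3.63%), 9 of 32 (4.35%), 1 of 29 (11.8%) and 2 of 27 (9.18%). The 2 groups of cows differed at this p in 1 of 31 (3.57%), 5 of 32 (5.06%), 7 of 29 (6.26%) and 3 of 30 members (3.94%). Without the mismatched libraries the ipsilateral ampulla had 6 of 32 members at this p for lactating cows against heifers (8.18% of all genes), 15 of 32 for non-lactating cows against heifers, 13 of them lower in the cows (5.18%), and 3 of 31 between the groups of cows (3.31%), with 0 members called in each. Counts summed per animal over 3 tissues gave 0 DEGs of 32 members (0% of all genes) and 4, 6 and 6 members at that p for lactating cows against heifers, non-lactating cows against heifers and lactating against non-lactating cows (9.65, 7.78 and 5.99% of all genes). In the ipsilateral isthmus DESeq2 called CXCL10 and PARP14 as DEGs of non-lactating cows against heifers (1.03% of all genes). CXCL10 was its only member called in the contralateral isthmus for non-lactating (0.154%) and lactating cows (0.314%) against heifers, and in the animal sums of lactating cows against heifers (0.456%).

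Between lactating and non-lactating cows the sign was nearly uniform while the spread was wide. All 29 members tested in the ipsilateral isthmus and all 30 in the contralateral isthmus had a higher fitted mean in lactating cows, as did 28 of 31 and 28 of 32 in the ipsilateral and contralateral ampulla and 31 of 32 in the animal sums. The median log2 fold change was 0.61, 0.28, 0.34, 0.39 and 0.46 in that order, with 49.2 to 51.0% of all genes lower in each. As the members moved together among animals, these counts are not independent of one another. SAMD9, for example, had 125, 18.4, 125 and 28.4 CPM in the ipsilateral isthmus of lactating cows A to D. In non-lactating cows A to E it had 41.2, 17.4, 44.6, 46.4 and 18.5 CPM there. Lactating cows A and C were above all non-lactating cows, and lactating cows B and D lay within their range. Non-lactating cows against heifers showed the opposite balance in the ampulla, with 27 of 31 and 27 of 32 members lower ipsilaterally and contralaterally (median log2 fold change -0.19 and -0.28). Without the mismatched libraries the median in the ipsilateral ampulla was -0.34 for non-lactating cows against heifers and 0.54 for lactating against non-lactating cows. Lactating cows against heifers had 27 of 29 members higher in the ipsilateral isthmus (median 0.42) and 21 of 29 in the contralateral isthmus (0.19). In the ampulla 17 of 32 were higher on either side. These counts are likewise not independent of one another.

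CXCL10 and PARP14 had the smallest p of the members in the comparisons with heifers. In the contralateral ampulla CXCL10 had 1.45, 1.37, 5.52, 5.01 and 0.167 CPM in heifers A to E and 169, 6.19, 24.3 and 2.34 CPM in lactating cows A to D. Lactating cow D lay among the heifers, and the others above them (log2 fold change 4.25 ± 1.10, adjusted p = 0.943 in edgeR, and 2.03 without lactating cow A). Non-lactating cows A to E had 17.2, 3.56, 2.30, 51.6 and 6.83 CPM there. In the ipsilateral isthmus the heifers had 0.513, 0.757, 0, 0.424 and 0.785 CPM of CXCL10 and the non-lactating cows 12.3, 1.89, 1.63, 11.4 and 1.07 CPM. The groups did not overlap, but CXCL10 did not pass the filter of edgeR in this comparison. Its count was 3 or fewer in 8 of the 10 isthmus libraries of heifers. DESeq2, whose filter kept it, gave an adjusted p of 0.00356. In the animal sums the log2 fold change of CXCL10 was 2.78 ± 0.69 for non-lactating cows (adjusted p = 0.435 in edgeR) and 4.67 ± 1.16 for lactating cows (adjusted p = 0.352 in edgeR; adjusted p = 0.0187 in DESeq2). For lactating cows the log2 fold change of CXCL10 was 2.09 without cow A (adjusted p = 0.656 in edgeR).

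For PARP14 in the ipsilateral isthmus, non-lactating cows A to E had 132, 128, 152, 134 and 90.9 CPM, all below the 157 CPM of heifer B, the lowest heifer (log2 fold change -0.64 ± 0.15, adjusted p = 0.141 in edgeR and 0.00952 in DESeq2). Lactating cows A to D had 235, 127, 241 and 141 CPM and so spanned both groups. In the contralateral isthmus PARP14 of heifers (97.3 to 158 CPM) and non-lactating cows (95.7 to 129 CPM) overlapped. IFI6 had a lower fitted mean in cows than in heifers at an unadjusted p under 0.05 in 6 of the 8 comparisons with heifers, those of the ampulla on both sides and of the contralateral isthmus. In the contralateral ampulla its level was 60 to 3160 CPM (median 264) in heifers, 42.6 to 146 CPM (median 105) in non-lactating cows and 16.8 to 78.4 CPM (median 55.5) in lactating cows, with a log2 fold change of -3.92 ± 1.07 for lactating cows (adjusted p = 0.943 in edgeR), and of -1.97 without heifer E (adjusted p = 0.949).

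**Figure D5:**
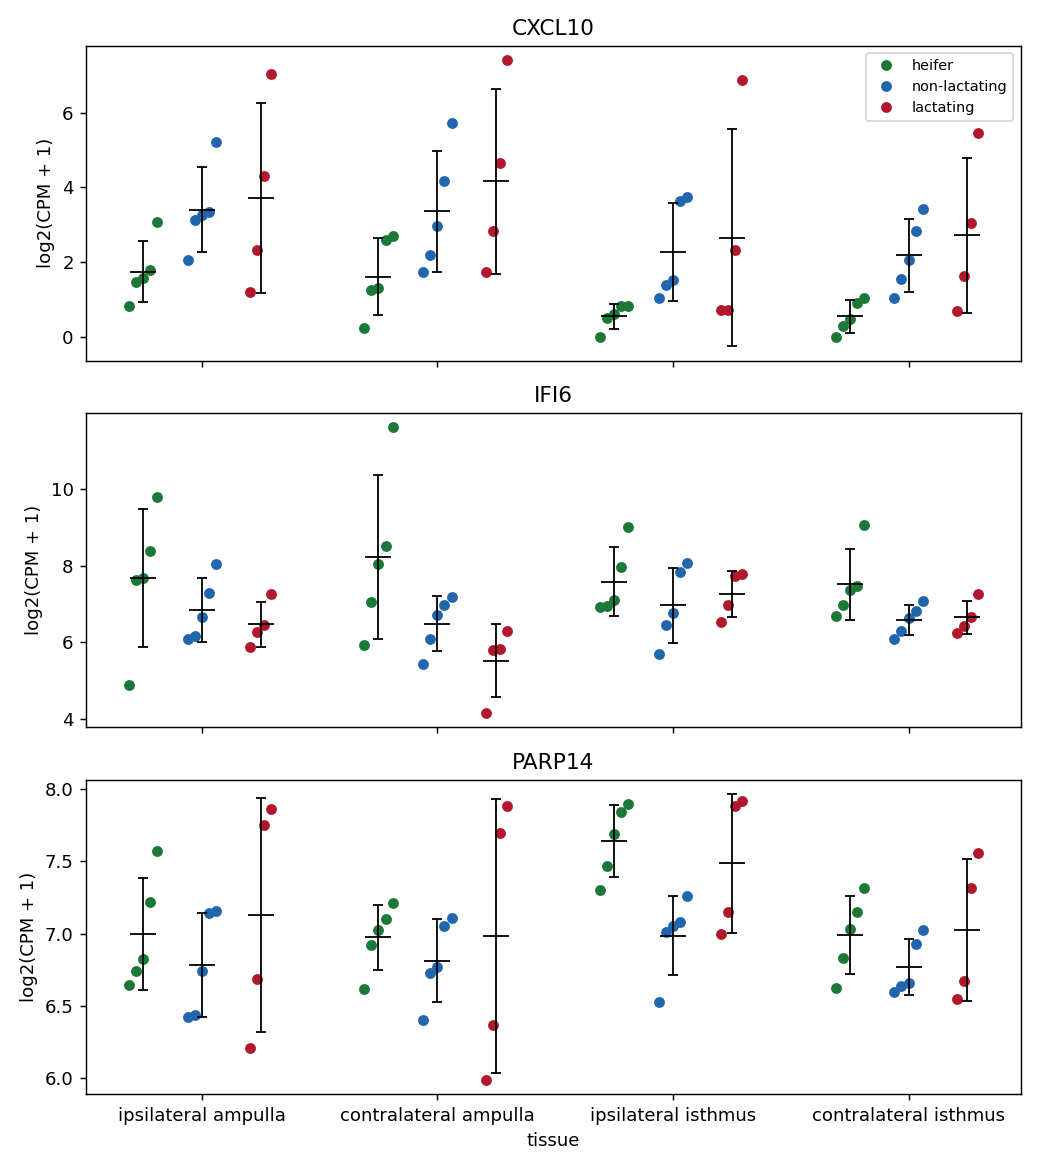
Level of CXCL10, IFI6 and PARP14 as log2(CPM + 1) (vertical axes) in the 4 tissues (horizontal axis), with 1 point per library, green for heifers, blue for non-lactating and red for lactating cows, and the mean with the SD in black. CXCL10 lies low in heifers and spreads over the whole range in lactating cows, IFI6 is highest in a heifer in each tissue, and PARP14 separates heifers from non-lactating cows in the ipsilateral isthmus.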

How the data were processed

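RNA of scraped oviduct epithelium was sequenced by the authors as stranded libraries, aligned with TopHat2 (version 2.0.13) to Btau_4.6.1 and counted per gene with HTSeq (version 0.6.1), by strand and in intersection-strict mode. The deposited values are whole-number counts, neither normalized nor filtered. The table also holds 5 summary lines, which were not used as genes and in which alignments outside features were 28.3 to 50.1% and those at several places 37.4 to 61.3% of all counted alignments. Members were matched by symbol, and columns were assigned to groups by their names.

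R (4.3.3) with edgeR (4.0.16) was used: TMM, filterByExpr with a minimum count of 10, the quasi-likelihood F test within each comparison and Benjamini-Hochberg adjustment over all genes tested. SEs were derived from the fold change and F. Log2 CPM used a prior count of 2, and a count of 3 was the floor of detection. Alternatives were RLE size factors, no filter, DESeq2 (1.42.0), the animal as a block, each library left out and the mismatched libraries left out. On simulated data with 200 genes changed by 1 on the log2 scale, 19.0% were recovered with 5 against 5 libraries, 19.0% with 4 against 4 and 15.5% with the block, so that a change of this size was often missed. The simulation with the block added a difference between animals to a dispersion that already held the spread between animals. Its share therefore does not measure what the block gains or costs in the real data. The animal numbers come from the column names. Over 10616 genes, deviations from the condition means correlated between the sides of an animal at a median r of 0.341 (above 0.1 in 20 of 26 pairs) and between its regions at 0.209 (21 of 26).

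The members and lists were chosen with earlier results of these data known. The rule for values per library was that of the members called, or, where over 4 were called, the 2 largest increases and decreases and CXCL10, and where none was called the 2 smallest p. HERC6, ZNFX1, ISG15, XAF1, SAMD9 and IFI6 were shown beyond it after their values were seen. Of 86 listed pathway genes 80 were in the table, and of 59 markers 56.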

Additional observations from a re-analysis of the deposited data

Results flagged for a closer look

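The mean of the members was checked in the 12 conditions, and the genes named by the rule for values per library in the conditions of their comparisons, 42 sets in all, of which chance alone would mark about 1 in 20. In 1 set a library lay far from the others. The contralateral ampulla of heifer B had 6.47 CPM of IFIT1 (log2 CPM 2.78), against 25.2 to 34.5 CPM in the 4 other heifers. IFIT1 was lower still in the contralateral isthmus of this heifer, at 1.78 CPM. The cause was not tested.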

How the results depend on the processing

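Counts of members called depended on the method most where few were called. DESeq2 called 2 members for non-lactating cows against heifers in the ipsilateral isthmus and 1 each for non-lactating and lactating cows against heifers in the contralateral isthmus, where edgeR called 0, and 1 in the animal sums of lactating cows against heifers. It called 1 between the isthmi of lactating cows, and between the regions of lactating cows 3 ipsilaterally and 2 contralaterally, against 1 each in edgeR. In that ipsilateral comparison RLE size factors and no filter gave 2, and no filter gave 2 contralaterally. The replicate block (the animal) gave 2 between the isthmi of heifers and of lactating cows, 1 between those of non-lactating cows and 1 between the ampullae of lactating cows (2 with the numbers put right). Between regions the block gave 5 (8 put right) in lactating cows ipsilaterally, 10 contralaterally, 12 in non-lactating cows contralaterally and 14 ipsilaterally with the numbers put right. It moved no other count by more than 1.5 times. With 1 library left out, counts ranged from 0 to 3 between the isthmi of heifers (0 without the ipsilateral library of heifer E or the contralateral one of heifer A, 2 without the ipsilateral one of heifer D and 3 without the contralateral one of heifer C), from 6 to 15 and 9 to 18 between the regions of heifers contralaterally and ipsilaterally, from 2 to 10 in non-lactating cows contralaterally and from 0 to 2 in lactating cows on either side. Ipsilaterally the count in lactating cows was 0 without the isthmus of cow C and 2 without the isthmus or the ampulla of cow A, and contralaterally 2 without the isthmus of cow C. No named member changed its sign under any alternative run. The cause of these changes was not tested. Low counts limit OAS2, CXCL10, IFIT2 and IFIT3, and with 4 or 5 animals per group changes of the size simulated were mostly missed.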
